A study of Homo sapiens with 24 samples.

Results

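The 10 genes described here carry cysteine from methionine into glutathione and govern how that glutathione is made, broken down, recycled and used. They are CTH and CBS for transsulfuration, GCLC, GCLM and GSS for glutathione synthesis, CHAC1, CHAC2 and GGCT for its breakdown, GSR for its recycling and GPX4 for its use. They were taken from the deposited table by gene name, and all 10 of 10 were found among the 18915 genes listed. The rule holds no measured value, but the set was chosen with earlier results of these data known. Enough counts for a test were present for 9 of the 10, and CHAC1 was the exception.

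In transsulfuration, CBS joins homocysteine to serine to give cystathionine, and CTH cleaves cystathionine to cysteine. Glutamate cysteine ligase, made of the catalytic subunit GCLC and the modifier subunit GCLM, couples cysteine to glutamate, and GSS then adds glycine to give glutathione. CHAC1 and CHAC2 cleave glutathione in the cytosol, and GGCT turns gamma-glutamyl amino acids into 5-oxoproline. GSR returns oxidised glutathione to the reduced form with NADPH, and GPX4 spends glutathione to reduce lipid peroxides. Liver cells are known for a strong transsulfuration pathway and for exporting glutathione. CTH, CHAC1 and the cystine transporter SLC7A11 are textbook targets of the stress transcription factor ATF4, and GCLC, GCLM and GSR are textbook targets of the oxidative stress factor NRF2 (gene NFE2L2).

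The cells were HepG2, a widely used line from a human liver tumour, and each of the 6 treatment groups lasted 10 h and had 4 biological replicates, 24 libraries in all. The groups were DMSO vehicle, 50 nM ISRIB, 20 µM nelfinavir, 50 nM bortezomib, 50 nM bortezomib with 20 µM nelfinavir, and 50 nM bortezomib with 50 nM ISRIB. Bortezomib inhibits the proteasome, nelfinavir is an antiviral protease inhibitor that the study used to raise phosphorylated eIF2α, and ISRIB makes cells insensitive to phosphorylated eIF2α. The study asked how perturbing the eIF2α-ATF4 branch of the unfolded protein response alters the response to the proteasome inhibitor. The RNA libraries described here cover 1 cell line and 1 time.

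Total counts ran from 5154533 to 6943164 per library. All 7 liver markers examined were present, with ALB between 1562 and 3533 CPM (counts scaled to the TMM-adjusted library size), and the fibroblast marker COL1A1 reached at most 1.11 CPM. Mitochondrially encoded genes took 18.0% to 23.2% of counts in the 12 libraries without bortezomib and 24.9% to 40.2% in the 12 with it. Levels below are CPM on the TMM scale, which sets the typical gene equal between libraries. Scaling by library totals alone would lower the median gene by 0.50 on the log2 scale in bortezomib against DMSO. A level is relative to the other genes of its library and is not an amount per cell, so fewer cells and less RNA per cell cannot be told apart.

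Promoter sequence was available in a RefSeq table (GRCh38.p14) for 7 of the 10 genes, all but GSS, GSR and GGCT. The 250 bases before the transcription start are shown for CTH, which had the largest fold increase of the set, for GCLM, whose level separated the treatment groups most finely, and for CHAC1, which was close to unread. Capitals mark the motif that was found. CTH lies at chr1:70411018-70411267 on the plus strand with the CRE core TGACG in capitals, GCLM at chr1:93909431-93909680 on the minus strand with the antioxidant response element TGACNNNGC read on the opposite strand, and CHAC1 at chr15:40953221-40953470 on the plus strand with the C/EBP-ATF composite TGATGNAA read on the opposite strand.
CTH: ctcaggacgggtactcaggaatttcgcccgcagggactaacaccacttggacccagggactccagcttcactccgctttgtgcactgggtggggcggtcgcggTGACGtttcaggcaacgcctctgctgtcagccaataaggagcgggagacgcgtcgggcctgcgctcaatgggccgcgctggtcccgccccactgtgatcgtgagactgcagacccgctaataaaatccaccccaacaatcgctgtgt
GCLM: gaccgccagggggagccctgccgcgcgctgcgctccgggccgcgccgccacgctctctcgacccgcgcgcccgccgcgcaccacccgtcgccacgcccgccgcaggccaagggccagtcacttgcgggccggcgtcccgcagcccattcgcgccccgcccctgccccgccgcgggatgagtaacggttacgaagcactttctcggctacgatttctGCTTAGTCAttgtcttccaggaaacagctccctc
CHAC1: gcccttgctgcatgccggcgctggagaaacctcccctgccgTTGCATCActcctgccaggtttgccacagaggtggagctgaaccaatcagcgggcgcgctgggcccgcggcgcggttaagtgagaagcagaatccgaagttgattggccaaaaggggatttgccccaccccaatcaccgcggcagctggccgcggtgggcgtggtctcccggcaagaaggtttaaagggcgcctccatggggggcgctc

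Both strands of each window, from 250 bases before to 50 after the start, were searched for these letters. The composite TGATGNAA was found in 1 of the 7 genes, CHAC1, 209 to 202 bases before the start, against 4.46% of the 27305 genes in the table (3.62% of its 35116 windows). TGACNNNGC was found in 2 of the 7, GCLM at 34 to 26 bases before the start and CBS at 83 to 75 bases before the start of 1 of its 3 windows, against 16.1% of all genes (13.3% of windows). TGACG was found in CTH and in all 3 windows of GPX4, against 28.4% of all genes (24.6% of windows). Windows 1 and 2 of GPX4 overlap and hold the same match. TGACG and TGACNNNGC share their first letters, and no position here carried both. A match is a run of letters and was not tested as a binding site.

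The genes that passed the test differed in number and direction between the comparisons. A gene passed when the adjusted p from edgeR's quasi-likelihood test was under 0.05. Bortezomib against DMSO moved 9 of 9 tested members, 5 up and 4 down, where 53.4% of all 12685 tested genes passed, 27.6% up and 25.8% down. Nelfinavir against DMSO moved 5 of 9, 4 up and 1 down, against 19.2% of all genes, 10.4% up and 8.84% down. ISRIB against DMSO moved 0 of 9 and 0% of all genes in the main edgeR fit. At an unadjusted p under 0.05, 1 member and 703 genes were counted in that comparison, and DESeq2 called 21 genes and no member.

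Adding nelfinavir to bortezomib moved 3 of 9 members relative to bortezomib, 2 up and 1 down, against 28.9% of all genes, 15.6% up and 13.4% down. Adding ISRIB to bortezomib moved 2 of 9, both down, against 12.2% of all genes, 6.91% up and 5.34% down. The combination of bortezomib and nelfinavir against nelfinavir moved 7 of 9, 5 up and 2 down, against 57.1% of all genes, 28.7% up and 28.4% down. Because more than 1 gene in 2 passed in some of these comparisons, the shares for the members in bortezomib against DMSO and in the combination against nelfinavir stand beside a high background.

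**Figure D1:**
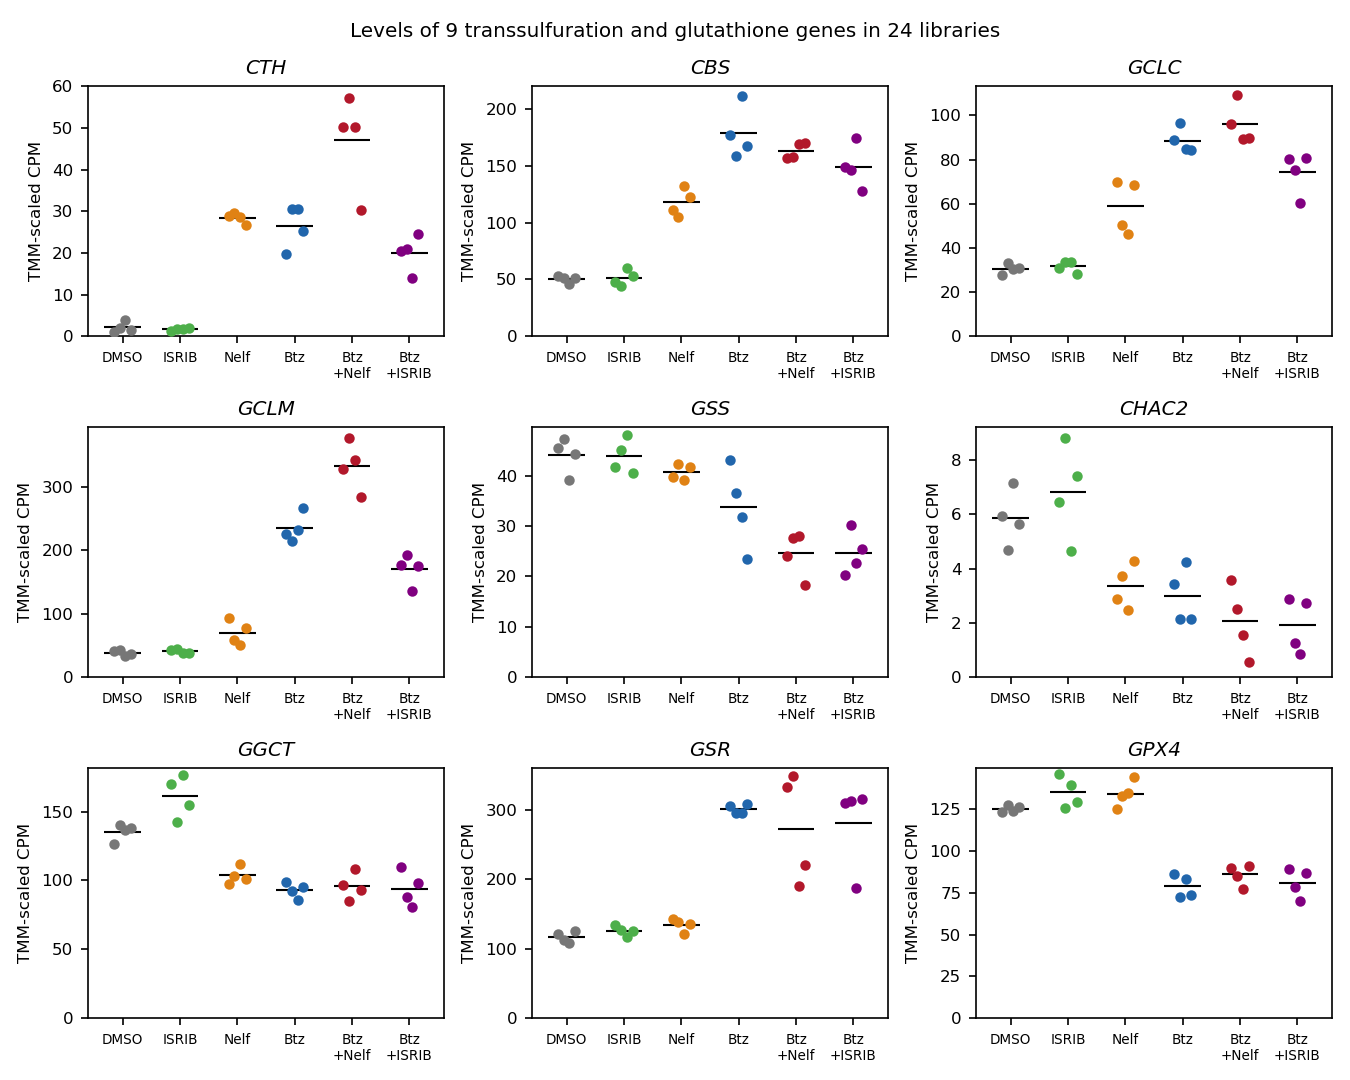
Each panel plots the TMM-scaled CPM of 1 gene (vertical axis, from 0) in the 4 libraries of each of 6 treatment groups (horizontal axis), with points for libraries and bars for group means. CTH rose from a mean of 2.13 CPM in DMSO to 28.4 with nelfinavir and 26.6 with bortezomib, GCLM climbed to 333 CPM with both drugs, and GSS, GPX4, CHAC2 and GGCT were lower with bortezomib than with DMSO.

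CTH (ENSG00000116761, chr1:70876901-70905534 on the plus strand in GRCh37) showed the largest fold increase of the set. Its levels were 1.05, 2.08, 3.92 and 1.47 CPM in the 4 DMSO libraries, and 1.39, 1.84, 1.70 and 1.97 CPM with ISRIB. With nelfinavir alone they were 28.8, 29.6, 28.6 and 26.7 CPM, and with bortezomib alone 19.7, 30.6, 30.6 and 25.3 CPM. Every library of either single drug stood above every DMSO library. CTH rose by 3.76 ± 0.25 (log2 fold change ± SE, n = 4 against 4) with nelfinavir, 13.6-fold, with an adjusted p of 1.35e-13. Bortezomib raised it by 3.67 ± 0.26, 12.7-fold, with an adjusted p of 7.40e-14. The DMSO level rested on 9 to 28 counts per library, so the size of both folds is less certain than their presence, and without DMSO replicate 3 the nelfinavir value was 4.21.

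Between the single drugs, CTH was not shown to differ. The log2 difference of nelfinavir from bortezomib was 0.10, with a 95% interval from -0.30 to 0.50 and an adjusted p of 0.714, although library totals put it at 0.57 with an adjusted p of 0.0114. With bortezomib and nelfinavir together CTH reached 50.1, 57.2, 50.3 and 30.4 CPM. Of these 4 libraries, 3 lay above all others in the series, and replicate 4 fell among the bortezomib libraries. The combination was higher than bortezomib by 0.82 ± 0.20 with an adjusted p of 0.0019, and higher than nelfinavir by 0.72 ± 0.19 with an adjusted p of 0.0017. The second of these differences was 0.21 with library totals, with an adjusted p of 0.331. With bortezomib and ISRIB the levels were 20.5, 20.9, 13.9 and 24.4 CPM, overlapping bortezomib alone, and the log2 difference of -0.42 had a 95% interval from -0.84 to 0.0034 and an adjusted p of 0.194.

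CBS (ENSG00000160200, chr21:44473301-44497053, minus strand) supplies the cystathionine that CTH cleaves. It read 52.6, 51.6, 46.1 and 51.5 CPM in DMSO and 48.1, 44.6, 60.2 and 53.1 CPM with ISRIB. Nelfinavir gave 111, 105, 133 and 123 CPM, and bortezomib 178, 158, 212 and 167 CPM. All libraries of either single drug lay above all DMSO libraries, and those of bortezomib lay above those of nelfinavir. The log2 increase was 1.82 ± 0.11 with bortezomib (3.54-fold, adjusted p 7.74e-16) and 1.22 ± 0.11 with nelfinavir (2.33-fold, adjusted p 6.69e-11).

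In the combinations CBS did not pass against bortezomib. Bortezomib with nelfinavir gave 157, 158, 169 and 170 CPM, within the range of bortezomib alone apart from replicates 1 and 2 just under its lowest library, with a log2 difference of -0.13 (95% interval -0.34 to 0.08). Bortezomib with ISRIB gave 149, 146, 174 and 128 CPM, with 3 of 4 libraries below all bortezomib libraries and a log2 difference of -0.26 (95% interval -0.47 to -0.05, adjusted p 0.0982). Without the bortezomib plus ISRIB replicate 3, that difference was -0.35 with an adjusted p of 0.0307, and with library totals it was -0.32 with an adjusted p of 0.0458. Against nelfinavir, the bortezomib plus nelfinavir level was higher by 0.47 on the TMM scale with an adjusted p of 0.000214, and by library totals the sign turned, to -0.03. In the GENCODE annotation used here for gene positions, a gene model of the biotype artifact overlaps CBS on its own strand. It is 100% identical to the CBS 3′ end over 500 bases and is not in the count table. Whether the annotation used for counting held it was not tested.

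GCLC (ENSG00000001084, chr6:53362139-53481768, minus strand) encodes the catalytic subunit of the ligase that sets the pace of glutathione synthesis. Its levels were 27.9, 33.2, 30.5 and 31.0 CPM in DMSO, and 30.9, 33.9, 33.6 and 28.2 CPM with ISRIB. Nelfinavir gave 69.8, 50.2, 46.5 and 68.7 CPM, with replicates 1 and 4 apart from 2 and 3, and bortezomib gave 88.8, 96.4, 84.7 and 84.5 CPM. Neither drug overlapped DMSO. GCLC rose by 1.53 ± 0.12 with bortezomib (2.89-fold, adjusted p 2.06e-12) and by 0.94 ± 0.12 with nelfinavir (1.92-fold, adjusted p 4.19e-07).

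Bortezomib with nelfinavir gave GCLC levels of 96.2, 109, 89.2 and 89.9 CPM, overlapping bortezomib alone, with a log2 difference of 0.12 (95% interval -0.12 to 0.36). With bortezomib and ISRIB they were 80.4, 75.4, 60.4 and 80.7 CPM, each below the lowest bortezomib library. That log2 difference was -0.26 (95% interval -0.50 to -0.01) and did not pass after adjustment, with an adjusted p of 0.166. LINC01564, which overlaps GCLC on the opposite strand, held 359 counts in the 24 libraries, and another gene model, which overlaps GCLC on its own strand and shares its sequence, held 3.

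GCLM (ENSG00000023909, chr1:94350755-94375012, minus strand) encodes the modifier subunit, which raises the affinity of the ligase for glutamate. DMSO libraries held 41.8, 42.3, 32.9 and 36.2 CPM, and ISRIB libraries 42.9, 44.2, 39.0 and 37.7 CPM. Nelfinavir gave 92.7, 59.0, 51.1 and 76.9 CPM, the widest relative spread of the gene, with the same replicates high as for GCLC. Bortezomib gave 225, 214, 232 and 267 CPM, bortezomib with nelfinavir 328, 377, 342 and 284 CPM, and bortezomib with ISRIB 177, 192, 136 and 175 CPM. Apart from DMSO and ISRIB, which overlapped, the 6 groups took separate ranges in the order bortezomib with nelfinavir, bortezomib, bortezomib with ISRIB, nelfinavir, then ISRIB and DMSO.

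The tests gave GCLM an increase of 2.61 ± 0.14 with bortezomib (6.11-fold, adjusted p 5.43e-17) and of 0.87 ± 0.14 with nelfinavir (1.82-fold, adjusted p 1.14e-05). Adding nelfinavir to bortezomib raised it further by 0.51 ± 0.13 (1.42-fold, adjusted p 0.00287). Adding ISRIB to bortezomib lowered it, by -0.46 ± 0.13 on the log2 scale (adjusted p 0.0141). This fall was close to the threshold, since leaving out bortezomib replicate 4 gave an adjusted p of 0.0577 and leaving out bortezomib plus ISRIB replicate 3 gave 0.0521.

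GSS (ENSG00000100983, chr20:33516235-33543830, minus strand) completes glutathione by adding glycine, and unlike the ligase subunits it was lower with bortezomib. DMSO ranged from 39.1 to 47.3 CPM, ISRIB from 40.4 to 48.2 and nelfinavir from 39.2 to 42.3. Bortezomib alone was scattered, at 43.2, 36.5, 31.9 and 23.6 CPM, and its highest library lay inside the DMSO range. The log2 difference from DMSO was -0.38 ± 0.14 with an adjusted p of 0.0254. Leaving out DMSO replicate 1 or bortezomib replicate 4 took the adjusted p to 0.0527 or 0.078.

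With bortezomib and nelfinavir GSS ran from 18.4 to 28.1 CPM, and with bortezomib and ISRIB from 20.3 to 30.2 CPM. Both combinations were lower than bortezomib alone by about the same amount, -0.46 ± 0.15 (adjusted p 0.0215) and -0.45 ± 0.15 (adjusted p 0.0476), with overlapping libraries in each case. Both falls were near the threshold. With 1 library left out, the nelfinavir combination no longer passed in 4 of 8 fits and the ISRIB combination in 6 of 8. Without bortezomib replicate 1 the adjusted p was 0.178 against the nelfinavir combination and 0.2 against the ISRIB combination, and with only the groups compared in the fit it was 0.0868 and 0.152. MYH7B overlaps GSS on the opposite strand and held 145 counts in all 24 libraries.

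Of the breakdown genes, CHAC1 was close to uncounted, and CHAC2 and GGCT fell with bortezomib. CHAC1 (ENSG00000128965, chr15:41245160-41248710, plus strand) held 3 counts in the whole series, 1 in ISRIB replicate 1 and 2 in nelfinavir replicate 3. The 4 libraries of DMSO together held 0 counts, which allows a level of up to 0.0950 CPM. Those of bortezomib, bortezomib with nelfinavir and bortezomib with ISRIB also held 0, which allows up to 0.156, 0.153 and 0.166 CPM, and these limits cover counting error only. They are limits on reads assigned to CHAC1, and whether reads of its RNA were lost in alignment, counting or annotation was not tested. No fold is given for CHAC1, and a difference between treatments was not detectable from these counts. No other annotated gene overlaps it.

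CHAC2 (ENSG00000143942, chr2:53994941-54002333, plus strand), the more constitutive paralogue, was read at low depth, from 3 to 67 counts per library. It stood at 5.93, 4.69, 7.14 and 5.64 CPM in DMSO and at 6.43, 8.79, 4.66 and 7.40 CPM with ISRIB. Nelfinavir gave 2.87, 3.74, 2.47 and 4.28 CPM and bortezomib 3.42, 2.13, 4.22 and 2.16 CPM. No library of either drug reached the DMSO range. The fall with bortezomib was -0.97 ± 0.36 on the log2 scale with an adjusted p of 0.0237, which became 0.0677 when DMSO replicate 3 was left out, and 0.0544 or 0.0508 when replicate 2 or 4 of bortezomib was. With nelfinavir the log2 difference was -0.80 ± 0.34 and missed the threshold (adjusted p 0.0953), while DESeq2 gave an adjusted p of 0.0497 and a fit of only these groups 0.00818.

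In the combinations CHAC2 ran from 0.56 to 3.59 CPM with nelfinavir and from 0.84 to 2.89 CPM with ISRIB, both overlapping bortezomib alone. Neither passed against bortezomib, and the 95% intervals of the log2 differences were wide, from -1.42 to 0.30 and from -1.52 to 0.23. ASB3 runs across CHAC2 on the opposite strand and held 884 counts in the 24 libraries, and whether strand was used in counting is not given in the sources used here.

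GGCT (ENSG00000006625, chr7:30536237-30544457, minus strand), which handles the gamma-glutamyl products of glutathione breakdown, was well read. DMSO libraries held 126, 140, 137 and 138 CPM, nelfinavir 97.7, 104, 112 and 101 CPM, and bortezomib 99.2, 92.3, 86.0 and 95.3 CPM. Both drugs lay wholly below DMSO. GGCT fell by 0.54 ± 0.10 on the log2 scale with bortezomib (adjusted p 1.44e-05) and by 0.39 ± 0.09 with nelfinavir (adjusted p 0.00269). With ISRIB alone GGCT was at 170, 143, 177 and 155 CPM, all above DMSO. That log2 difference of 0.25 ± 0.09 had an unadjusted p of 0.0108, did not pass after adjustment (adjusted p 0.719), and was the member counted above at an unadjusted p under 0.05. A protein coding gene model that overlaps GGCT on its own strand, with 99.4% identity over 164 bases near the 3′ end, is not in the count table. Both combinations overlapped bortezomib alone, with 95% intervals of the log2 difference from -0.15 to 0.24 for nelfinavir and from -0.19 to 0.21 for ISRIB.

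GSR (ENSG00000104687, chr8:30535583-30585363, minus strand) regenerates reduced glutathione. It held 121, 112, 109 and 126 CPM in DMSO, 134, 127, 117 and 126 CPM with ISRIB and 142, 138, 121 and 135 CPM with nelfinavir. Bortezomib gave 305, 296, 295 and 308 CPM, a tight group far above those ranges, and the increase over DMSO was 1.36 ± 0.14 (2.58-fold, adjusted p 6.88e-10). Nelfinavir alone overlapped DMSO, with a log2 difference of 0.20 (95% interval -0.09 to 0.49, adjusted p 0.373). Nelfinavir was lower than bortezomib by -1.17 ± 0.14 on the log2 scale.

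The combinations split GSR within groups. Bortezomib with nelfinavir gave 332 and 348 CPM in replicates 1 and 2, and 190 and 220 CPM in replicates 3 and 4. Bortezomib with ISRIB gave 309, 312 and 315 CPM in 3 replicates and 187 CPM in replicate 3. Mitochondrial genes took 28.5% and 29.6% of counts in the first pair of nelfinavir combination libraries, 24.9% and 25.6% in the second, and 32.6% in the low ISRIB combination library, the lowest of its group. The part of this share in the GSR values was not tested. Neither combination passed against bortezomib (log2 differences -0.14 and -0.10), and the sign turned to 0.02 without bortezomib plus nelfinavir replicate 3 and to 0.05 without bortezomib plus ISRIB replicate 3.

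GPX4 (ENSG00000167468, chr19:1103981-1106790, plus strand), the peroxidase that protects membranes from lipid peroxidation, moved opposite to GSR. It stood at 123, 127, 124 and 126 CPM in DMSO and at 86.4, 72.3, 83.0 and 73.5 CPM with bortezomib. The groups did not overlap, and GPX4 fell by 0.67 ± 0.09 on the log2 scale (1.59-fold lower, adjusted p 1.28e-07). Nelfinavir alone gave 125 to 144 CPM and ISRIB alone 126 to 146 CPM, both overlapping DMSO, with 95% intervals of the log2 difference from -0.08 to 0.28 and from -0.07 to 0.29. Bortezomib with nelfinavir (77.4 to 91.2 CPM) and with ISRIB (70.3 to 89.1 CPM) overlapped bortezomib alone.

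**Figure D2:**
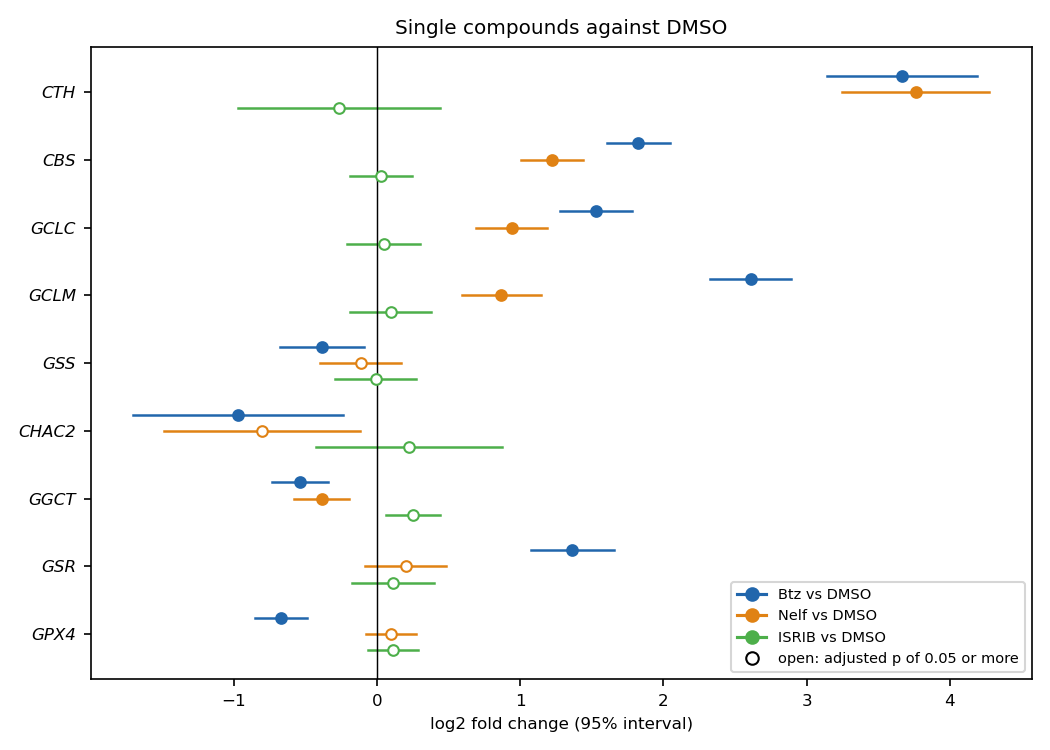
Points are log2 fold changes against DMSO for bortezomib, nelfinavir and ISRIB alone (horizontal axis) for 9 genes (vertical axis), with 95% intervals as bars and open points for an adjusted p of 0.05 or more. CTH had about the same change with bortezomib (3.67) and nelfinavir (3.76), GCLM and GSR changed more with bortezomib (2.61 and 1.36) than with nelfinavir (0.87 and 0.20), and no ISRIB point is filled.

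Set directly against each other, bortezomib and nelfinavir differed in 5 of the 9 genes, 1 higher and 4 lower with nelfinavir, where 48.7% of all genes passed, 23.6% higher and 25.2% lower. GCLM was 3.35-fold, GSR 2.24-fold, CBS 1.52-fold and GCLC 1.51-fold lower with nelfinavir, and GPX4 was 1.70-fold higher with nelfinavir. These folds used the TMM scale, under which 48.4% of all the genes that passed were higher with nelfinavir. Under library totals that share was 83.6%, the median gene moved by 0.47, and the CBS and GCLC differences shrank to -0.13 and -0.12 on the log2 scale and no longer passed. GSS, GGCT and CTH, which were at 0.27, 0.15 and 0.10 on the TMM scale without passing, passed by library totals at 0.74, 0.63 and 0.57. The directions for GCLM, GSR and GPX4 held under both scales.

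The fold against DMSO was likewise read under both scales for bortezomib. Of the genes that passed, 51.6% were higher on the TMM scale and 19.2% by library totals. All 9 members kept their direction and passed in both. The background was high, since 53.4% of all genes passed on the TMM scale. Under the 8 alternative settings, library totals among them, 6623 to 7756 genes passed. By library totals the log2 values of the genes that rose were 3.17 for CTH, 1.33 for CBS, 1.03 for GCLC, 2.11 for GCLM and 0.87 for GSR. Those of the genes that fell were larger than on the TMM scale, at -0.88 for GSS, -1.46 for CHAC2, -1.04 for GGCT and -1.16 for GPX4. Library ranges of bortezomib and DMSO were separate for 8 of the 9 members, as they were for 50% of all genes. Those of nelfinavir and DMSO were separate for 6 of the 9, against 29.6% of all genes. In bortezomib against DMSO the median log2 difference was 1.36 over the 9 members and 0.0017 over all tested genes. With 5 members up and 4 down, the member median is the value of GSR and does not describe a shift of the whole set.

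Whether nelfinavir did the same with and without bortezomib was asked with the interaction, the log2 change that nelfinavir brought on top of bortezomib less the one it brought on top of DMSO. It passed for 4 of the 9 members, 1 positive and 3 negative, against 19.7% of all genes, 9.74% positive and 10% negative. For CTH it was -2.94 ± 0.33 (adjusted p 2.86e-08), since nelfinavir added 3.76 to DMSO and 0.82 to bortezomib. CBS gave -1.35 ± 0.15 (adjusted p 2.25e-08), from 1.22 without bortezomib to -0.13 with it. GCLC gave -0.82 ± 0.17 (adjusted p 0.000604), from 0.94 to 0.12. For these 3 genes the single-drug changes together exceeded the change with both drugs. GGCT gave 0.43 ± 0.13 (adjusted p 0.0221), from a fall of 0.39 without bortezomib to 0.04 with it.

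GCLM did not pass this test. Its interaction was -0.36 with a 95% interval from -0.74 to 0.02 (adjusted p 0.175), so nelfinavir was not shown to act differently on GCLM in the 2 settings. GSS, GSR, GPX4 and CHAC2 did not pass either. The same 4 genes passed under all 8 alternative settings and with any 1 of the 16 libraries of these groups left out.

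**Figure D3:**
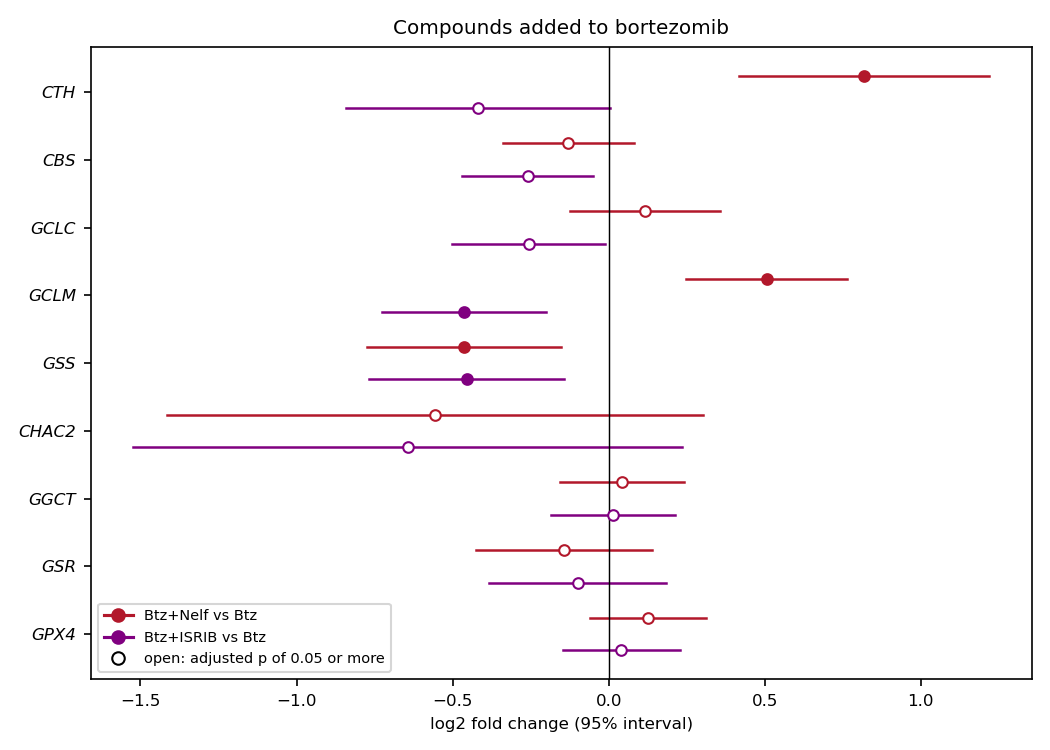
Points are log2 fold changes of bortezomib with nelfinavir and of bortezomib with ISRIB, each against bortezomib alone (horizontal axis), for 9 genes (vertical axis), with 95% intervals as bars and open points for an adjusted p of 0.05 or more. GCLM lies at 0.51 with nelfinavir and at -0.46 with ISRIB, both filled, and CTH lies at 0.82 with nelfinavir, filled, and at -0.42 with ISRIB, open.

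The ISRIB by bortezomib interaction passed for 0 of the 9 members in the main edgeR fit, against 4.82% of all genes. At an unadjusted p under 0.05, 2 of the 9 members, GCLM and GSS, were counted, beside 2317 of all 12685 tested genes. GCLM had the smallest adjusted p of the set, with a value of -0.56 (95% interval -0.95 to -0.17, adjusted p 0.0839), and it passed under 4 of the 8 alternative settings. These were DESeq2 (adjusted p 0.044), and edgeR with a replicate block (0.0464), with no filter (0.0118) and with only the groups compared (0.0197). For GSS it was -0.45 (adjusted p 0.241). In bortezomib with ISRIB against bortezomib, CTH, CBS, GCLC, GCLM, GSS, GSR and CHAC2 had negative estimates, of which GCLM and GSS passed. GPX4 and GGCT had positive estimates (0.04 and 0.01), and the median of all tested genes was 0.0065. Without bortezomib plus ISRIB replicate 3, GSR turned to 0.05. In that edgeR fit GCLM and GSS no longer passed (adjusted p 0.0521 and 0.0955), and CBS passed (0.0307). Of all genes that passed in that comparison, 56.4% were higher on the TMM scale and 40.5% by library totals.

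The balance of the ligase subunits was read within each library, where scaling between libraries plays no part. The log2 ratio of GCLM to GCLC counts, with 0.5 added to each, was 0.58, 0.35, 0.11 and 0.22 in DMSO, with a mean of 0.32 ± 0.20 (SD, n = 4). It was 0.37 ± 0.11 with ISRIB and 0.24 ± 0.12 with nelfinavir, both overlapping DMSO. Bortezomib gave 1.34, 1.15, 1.45 and 1.66, all above those 12 libraries, with a mean of 1.40 ± 0.21. With nelfinavir added it was 1.77, 1.78, 1.94 and 1.66, a mean of 1.79 ± 0.11 whose lowest library met the highest of bortezomib alone, and with ISRIB added it was 1.14, 1.35, 1.17 and 1.11, a mean of 1.19 ± 0.11. Nelfinavir alone left the ratio in the DMSO range while both subunits rose, and every group that held bortezomib had more GCLM per GCLC than any group without it.

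For the transsulfuration enzymes, the log2 ratio of CTH to CBS counts averaged -4.69 ± 0.87 in DMSO and -4.85 ± 0.26 with ISRIB. It was -2.04 ± 0.19 with nelfinavir, where all 4 libraries (-2.21 to -1.83) lay above those of DMSO (-5.58 to -3.53). With bortezomib it was -2.76 ± 0.33, with bortezomib and nelfinavir -1.83 ± 0.45, and with bortezomib and ISRIB -2.92 ± 0.52. Apart from 2 libraries that crossed, DMSO replicate 3 at -3.53 and bortezomib plus ISRIB replicate 3 at -3.64, every library with nelfinavir or bortezomib lay above every library of DMSO and ISRIB. Since the genes differ in sequence, these ratios compare groups and not the 2 enzymes with each other.

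**Figure D4:**
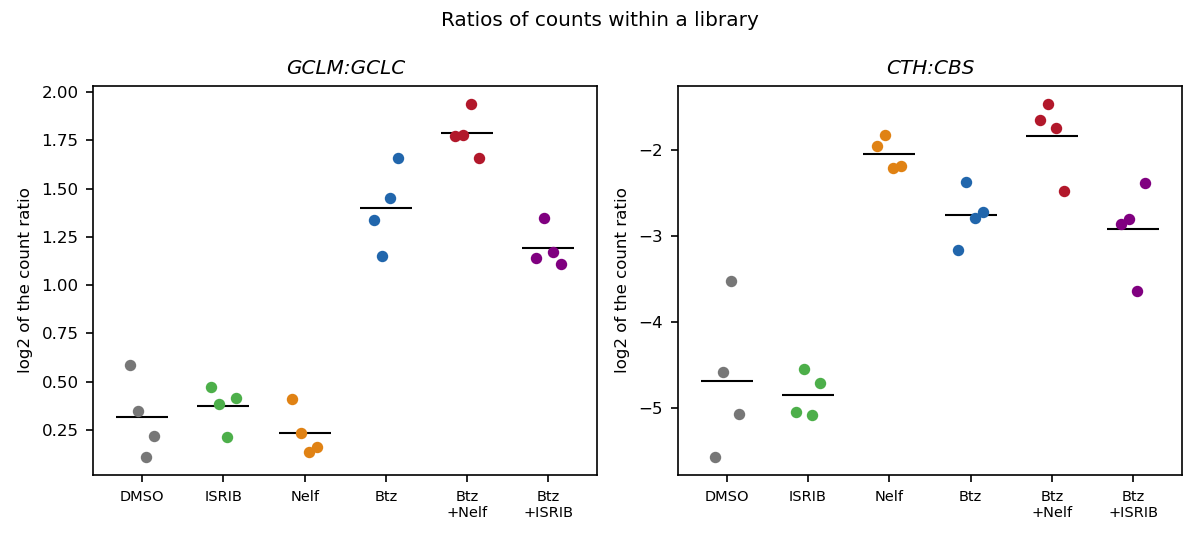
Points are log2 ratios of counts within a library (vertical axis) for GCLM to GCLC and for CTH to CBS in the 4 libraries of each of 6 groups (horizontal axis), with bars for group means. The GCLM to GCLC mean moves from 0.32 in DMSO to 1.40 with bortezomib and 1.79 with bortezomib and nelfinavir, and stays at 0.24 with nelfinavir alone, while the CTH to CBS mean moves from -4.69 in DMSO to -2.04 with nelfinavir alone.

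The wider pathway was followed in 38 other genes in the table, of which 37 were tested. The regulators ATF4, NFE2L2 and KEAP1, described further below, are counted among them. With bortezomib 12 of the 37 rose and 12 fell on the TMM scale, where 27.6% of all genes rose and 25.8% fell. With nelfinavir 7 rose and 1 fell, where 10.4% and 8.84% of all genes did, and with ISRIB none passed. Both genes of cystine import rose with either single drug. SLC7A11, the cystine antiporter, averaged 32.2 CPM in DMSO, 432 with bortezomib and 281 with nelfinavir, a rise of 3.74 and 3.12 on the log2 scale (adjusted p 1.65e-24 and 5.61e-22). Its partner chain SLC3A2 rose by 1.24 and 1.16 (adjusted p 2.75e-14 and 6.35e-13). Adding nelfinavir to bortezomib left SLC7A11 at 438 CPM (log2 difference 0.02, adjusted p 0.904), while SLC3A2 rose by 0.87 (adjusted p 9.96e-10).

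Upstream in the methionine cycle, 2 of 8 genes rose and 4 fell with bortezomib, beside 27.6% and 25.8% of all genes. MAT1A, the liver form of methionine adenosyltransferase, fell by 1.60 (adjusted p 1.74e-15) and MTR, which remethylates homocysteine, by 0.76 (adjusted p 5.23e-05). With nelfinavir neither passed. Among 7 genes of cysteine and sulfide use, 3 rose and 2 fell with bortezomib, beside the same shares of all genes. Those that fell were CDO1, which oxidises cysteine, by 2.41 (adjusted p 6.72e-07), and SUOX by 1.82 (adjusted p 8.60e-06). ETHE1, the mitochondrial persulfide dioxygenase, rose by 0.97 (adjusted p 1.69e-08). Nelfinavir raised 2 of these 7 genes, where 10.4% of all genes rose.

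Of 8 glutathione peroxidases and glutaredoxins tested, 2 rose and 3 fell with bortezomib, near the shares of all genes (27.6% and 25.8%). GPX3, the secreted peroxidase, rose by 1.09 (adjusted p 8.92e-11), while GPX2 fell by 0.79 (adjusted p 1.23e-07) and GLRX5, a mitochondrial iron-sulfur glutaredoxin, by 1.35 (adjusted p 1.01e-13). In the other genes of the gamma-glutamyl cycle 1 of 6 rose and 2 fell with bortezomib, beside the same shares of all genes. OPLAH, which opens 5-oxoproline, rose by 1.02 (adjusted p 0.000516) and the peptidase ANPEP fell by 0.76 (adjusted p 3.20e-07). Of 3 mitochondrial carriers and exporters, ABCC1, which exports glutathione and its conjugates, rose by 1.42 (adjusted p 0.00206) and the mitochondrial carrier SLC25A40 fell by 0.75 (adjusted p 0.032).

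The regulators were measured as RNA alone. ATF4 rose by 1.37 with bortezomib (adjusted p 8.79e-12) and by 1.90 with nelfinavir (adjusted p 2.16e-14), and adding nelfinavir to bortezomib raised it by another 0.84 (adjusted p 1.15e-06). NFE2L2, which encodes NRF2, was at 0.26 with bortezomib (adjusted p 0.066) and at -0.12 with nelfinavir (adjusted p 0.553), and KEAP1 at 0.06 and 0.15 did not pass. When nelfinavir was added to bortezomib 3 of the 37 pathway genes, ATF4 among them, rose and 12 fell, where 15.6% of all genes rose and 13.4% fell. When ISRIB was added 3 rose and 4 fell, where 6.91% and 5.34% of all genes did. SLC3A2 fell by 0.36 (adjusted p 0.00303), and GLRX, a glutaredoxin named here after its values were seen, rose by 1.27 (adjusted p 4.16e-05), from 41.2 CPM with bortezomib to 99.4 with ISRIB added.

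Over the 24 libraries the members fell into sets that went up and down together, described here with no test since the libraries share their treatment groups. Pearson's r of log2 CPM was 0.956 for GCLC with GCLM, 0.936 for CBS with GCLC, 0.918 for CTH with CBS and 0.910 for GCLM with GSR. GGCT ran against CBS at -0.893 and GPX4 against GCLM at -0.868. The gene most like CTH among all others tested was MTHFD2 (r 0.987), a mitochondrial folate enzyme, followed by MARS and GARS (0.978 and 0.972), which encode tRNA synthetases. For GCLM the closest was PPP1R15A (0.988), then CTNNA1 and JUN (0.985 and 0.984). For CBS it was OSGIN1 (0.983), for GCLC MAP1LC3B (0.977) and for GSR INSR (0.975). The remaining members had looser neighbours, PYGL for GPX4 (0.958), FAM198B for GGCT (0.930), RBBP7 for CHAC2 (0.911) and PBK for GSS (0.906).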

How the data were processed

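Libraries of 3′ mRNA (QuantSeq FWD, 80 bp single-end reads) from 24 HepG2 cultures in 6 groups of 4 were analysed. The authors trimmed reads with cutadapt 2.8, used STAR within an nf-core pipeline for alignment to hg19, and deposited unnormalised read counts per gene (Ensembl GRCh37 models of protein coding, lincRNA and antisense genes). Which program counted the reads, whether it used strand, and whether duplicate molecules were collapsed was not given in the sources used here. Limits on single counts therefore cover counting error only. QuantSeq reads come from transcript 3′ ends, so counts do not scale with transcript length.

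Genes were found by name. Genes with too few counts were removed with filterByExpr (minimum count 5, minimum total 25), leaving 12685. After TMM scaling, edgeR 4.0.16 (quasi-likelihood, R 4.3.3) was fitted once to the 24 libraries, each group having its own coefficient, and p-values were adjusted by Benjamini-Hochberg over all genes tested. SEs were derived from that fit, as the absolute log2 fold change over the square root of the F statistic. The 95% intervals used these SEs and a t quantile. The spread behind them was estimated over all 24 libraries. CPM are counts over the TMM-scaled total of the genes kept. Log2 CPM for correlations used a prior count of 2. Alternatives were RLE factors, library totals, TMM without the 20 most counted genes, no filter, edgeR's default filter (minimum count 10, minimum total 15), a replicate block, DESeq2 1.42.0, fits of the compared groups alone and leaving out each library. The fitting script was tested on simulated counts.

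The text names the 10 genes, 2 to 4 genes with the smallest p in any comparison with DMSO from each pathway group, and the tested genes with the highest r to each member. The genes and pathway lists were chosen with earlier results of these data known. Gene positions are from GENCODE (GRCh37), which had a model for 18304 of 18915 genes (96.77%). Near-identical copies were sought with BLAST 2.17.0, with at least 97% identity over 80 bases of the last 500 bases, and promoter letters with Python 3.11.15. GPX8 had no entry, and GGT5 had too few counts for a test. Genes of NADPH supply are not reported here.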

Additional observations from a re-analysis of the deposited data

Results flagged for a closer look

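GSR in bortezomib with ISRIB stood out because 1 of the 4 libraries, replicate 3 at 187 CPM, lay far from the other 3 (309 to 315 CPM), with a gap of 0.959 of the whole range of the group. The critical gap used for groups of 4 is passed by chance in about 1 in 20 groups, and this gap was larger than it. All 9 tested members were checked in all 6 groups, so some gaps of this kind are expected by chance, and this was the only one. The same library had the lowest value of its group in 7 of the 9 tested members and the highest in 1, CBS. Its mitochondrial share was 32.6%, and its total of 5572999 counts lay within the range of the group. Without it, GSR in bortezomib with ISRIB was 0.05 above bortezomib on the log2 scale.

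The effect of nelfinavir differed with and without bortezomib for 4 genes, by a test of the difference itself. On the log2 scale the difference was -2.943 for CTH, -1.352 for CBS, -0.8241 for GCLC and 0.4285 for GGCT. CTH rose with nelfinavir in both settings, less so with bortezomib present. CBS, GCLC and GGCT passed the test against DMSO and did not pass against bortezomib.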

How the results depend on the processing

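Of the 35 differences that passed, 273 values under other settings kept their direction and side of the threshold, 6 fell short and 1 reversed; with 1 library left out, 295 held and 17 fell short. Of the 46 that did not pass, 349 held, 12 passed and 3 reversed under other settings, and 461 held, 3 passed and 16 reversed with 1 library left out. The causes were not tested.

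Scaling by library totals reversed CBS in bortezomib with nelfinavir against nelfinavir (-0.0342) and the differences of GPX4 (-0.0249) and GGCT (-0.0523) in bortezomib with ISRIB against bortezomib, which had not passed. RLE factors turned GSS in ISRIB against DMSO to 0.00262. Library totals moved the median gene by -0.498 in bortezomib against DMSO, -0.507 in bortezomib with nelfinavir against nelfinavir, and 0.472 in nelfinavir against bortezomib. The share of higher calls then went from 50.3% to 19.6% in the second of these, and from 60.8% to 49.4% in the ISRIB by bortezomib interaction. CTH (0.209) and GCLC (0.196) lost their calls in bortezomib with nelfinavir against nelfinavir, and CHAC2 (-1.23) and GGCT (-0.618) gained them. The number of members that passed in the ISRIB by bortezomib interaction went from 0 to 1, GCLM, with no filter, with DESeq2 and with only the groups compared. In bortezomib with ISRIB against bortezomib it went from 2 to 1 with only the groups compared and to 3 with library totals, where CBS passed (-0.317).

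Labels name replicates 1 to 4 without saying that a number marks a shared culture or day. In the ISRIB group the lowest library number in the labels belongs to replicate 4, while in the other groups library and replicate numbers rise together. Whether an ISRIB replicate matches the same number in other groups is therefore unknown. The pairs and the block below used the numbers as labelled. Deviations from the group means correlated above 0.1 in 10 of the 60 same-numbered pairs and in 7 of the 180 differently numbered pairs, and 14 of 24 libraries correlated best with their own number, a hint from the data and not from the design. With a replicate block, 1 member, GCLM, passed in the ISRIB by bortezomib interaction (-0.575, adjusted p 0.0464), and the block changed no other call of a member.

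With 1 library left out, the number of members that passed ran from 1 to 2 in bortezomib with ISRIB against bortezomib, from 7 to 9 in bortezomib against DMSO and from 2 to 3 in bortezomib with nelfinavir against bortezomib. Against DMSO, ISRIB gave -0.504 to 0.182 for CTH, -0.0535 to 0.0911 for CBS and -0.0609 to 0.0311 for GSS. The nelfinavir by bortezomib interaction ran from -0.00808 to 0.117 for GPX4 and from -0.117 to 0.617 for CHAC2, and the ISRIB interaction from -0.601 to 0.0847 for CTH. GSR ran from -0.24 to 0.0153 with nelfinavir added to bortezomib and from -0.162 to 0.0488 with ISRIB added, where GPX4 ran from -0.00987 to 0.0995 and GGCT from -0.0724 to 0.0771.

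Over all genes, ISRIB against DMSO gave 39 calls with no filter, 21 with DESeq2 and 80 with only the 2 groups fitted, against 0. Fitting only the groups compared gave 3873 in place of 2441 for nelfinavir against DMSO, 2246 in place of 3669 for nelfinavir added to bortezomib and 867 in place of 1553 for ISRIB added to it. DESeq2 gave 923 in place of 612 for the ISRIB interaction. Few counts limit CHAC1, with 3 in all, and CHAC2, with 3 to 67 per library.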
